A study of Arabidopsis thaliana with 4 samples.

Results

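The plastid genome of Arabidopsis thaliana was followed through the 87 loci of the array whose code begins with ATCG, out of 32627 loci in all, each represented by 1 transcript model. They were taken by that prefix alone, with no filter on a measured value, although earlier results of these data were known. Seedlings gave total RNA 13 days after germination. They stood on soil in long days (16 hours of light, 8 hours of dark) at 22 °C and were not treated. The wild type was Col-0, of normal flowering time. The other genotype, 35S::JMJ30-HA, shared this background and was labelled as flowering late. In it the constitutive cauliflower mosaic virus 35S promoter drives JMJ30, a gene of the JmjC histone demethylase family, with an HA tag. Each genotype was measured on 2 one-colour Cy3 NimbleGen arrays, labelled as biological replicates 1 and 2. The arrays numbered 1 are called set 1 below, and those numbered 2 set 2. Paired values are given in that order. The labels do not say how many plants entered a sample, at what hour it was harvested or how many transgenic lines were used.

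Chloroplasts keep a small circular genome from their cyanobacterial ancestor. It encodes core subunits of both photosystems, the cytochrome b6f complex, the ATP synthase and the NDH complex, the large subunit of Rubisco, part of the plastid ribosome and RNA polymerase, and the ribosomal and transfer RNAs of the organelle. Transcription is shared between a bacterial-type polymerase, whose core is encoded in the plastid and whose sigma factors come from the nucleus, and phage-type polymerases encoded in the nucleus. Plastid genes occur in many copies per cell and are often transcribed together from one promoter and then cut into smaller RNAs. Most plastid mRNAs carry no stable poly(A) tail, and the labelling primer of these arrays is unknown here. In RNA of seedlings, fewer plastids, fewer green cells and less RNA per plastid cannot be told apart.

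The loci are named here by their codes. The gene table used for names lists 129 plastid genes under other identifiers and held 0 of the 87 codes, so symbols, functional classes and sequences were not used here. An intensity also depends on the probes of its locus, so an order of loci is an order of signals and not of transcript amounts.

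Median intensity per array lay between 25.6 and 26.6 over all transcript models, and precision is limited by there being 4 arrays. JMJ30 (AT3G20810, listed as JMJD5 in the gene table), the gene under the 35S promoter, read 705 and 567 in wild-type replicates 1 and 2, against 1054 and 721 in 35S::JMJ30-HA. The genotypes did not overlap, and the log2 difference of 0.46 ± 0.27 (SE) was not called by limma (adjusted p = 1.0). Of the markers of green tissue, RBCS1A and PSAD-1 (PSAD1) had mean intensities above 1000 in both genotypes, whereas LHCB2.1 read 36.6 to 68.8. CAB2 read only 6.98 to 8.57 and was near background. The 5 root, 4 seed and 4 flower markers were all near background, the root markers with mean intensities of 4.75 to 7.59.

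Plastid loci were among the brightest features of the array. Their mean intensity over the 4 arrays, taken on the log2 scale, had a median of 699.5, against 23.8 for the 32433 nuclear loci and 31.6 for the 107 mitochondrial loci. The median plastid locus had a higher signal than 98.0% of all loci. All but 1 of the 87 lay above the valley at an intensity of 14.3 that separates the modes of the distribution of all loci, against 54.4% of nuclear and 71.03% of mitochondrial loci. The exception was ATCG01030, which read 7.55 and 11.4 in the wild type, against 9.79 and 12.2 in 35S::JMJ30-HA, and is called near background for this reason. These comparisons of genomes describe the signals and were not tested.

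**Figure D1:**
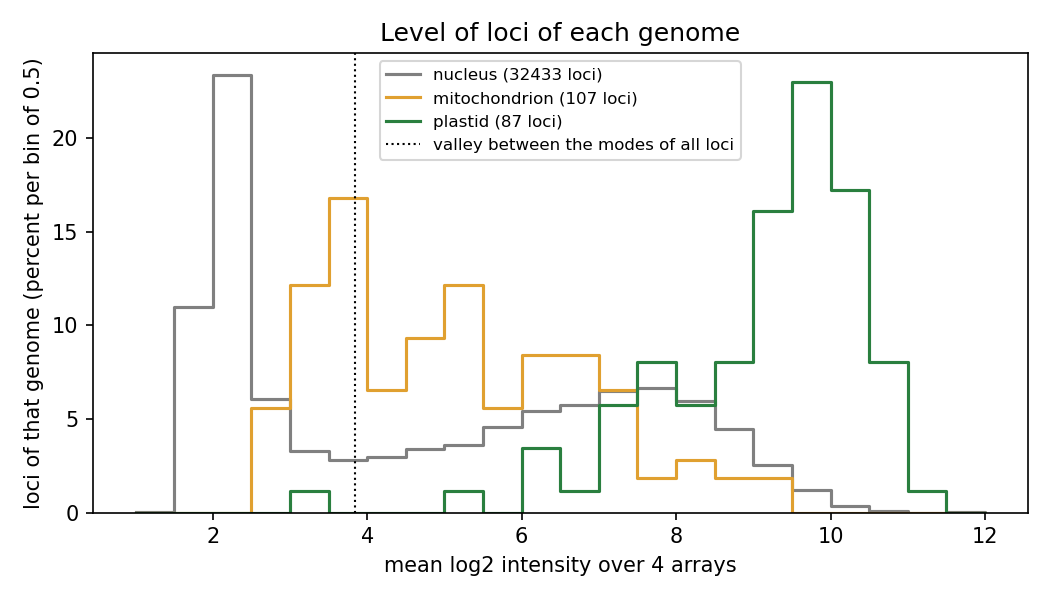
Share of the loci of each genome (percent per bin) against mean log2 intensity over the 4 arrays, for 32433 nuclear, 107 mitochondrial and 87 plastid loci. The plastid loci lie to the right of the dotted valley at an intensity of 14.3 except for 1 locus.

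Within the plastid genome the signal ran from 10.1 to 2237. Mean intensity was above 1000 for 25 loci and under 100 for 5. The brightest was ATCG00270, which read 2511 and 2084 in wild-type replicates 1 and 2, against 2281 and 2098 in 35S::JMJ30-HA. ATCG00020 came next, at 1833 and 1922 in the wild type, against 1731 and 1939 in 35S::JMJ30-HA. The readings of these loci did not overlap. ATCG00280, the next in order, read 1473 to 1756 and overlapped with ATCG00020.

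For description, the loci were ranked by their mean over all 4 arrays and split into a dim, a middle and a bright group of 29 loci each. The dim group spanned mean intensities of 10.1 to 462.7, the middle group 487 to 936 and the bright group 937 to 2237. The bright loci were also the steady ones. The SD of a locus over the 4 arrays on the log2 scale had a median of 0.099 in the bright group. It was 0.11 in the middle group and 0.31 in the dim group. Over all loci it was 0.22, at a median intensity of 24.2, so that comparison is not at equal signal. In the order of the codes, the longest run of dim-group loci was 5 consecutive loci of the table, from ATCG00850 to ATCG00890, and another run of 4 went from ATCG00390 to ATCG00430.

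**Figure D2:**
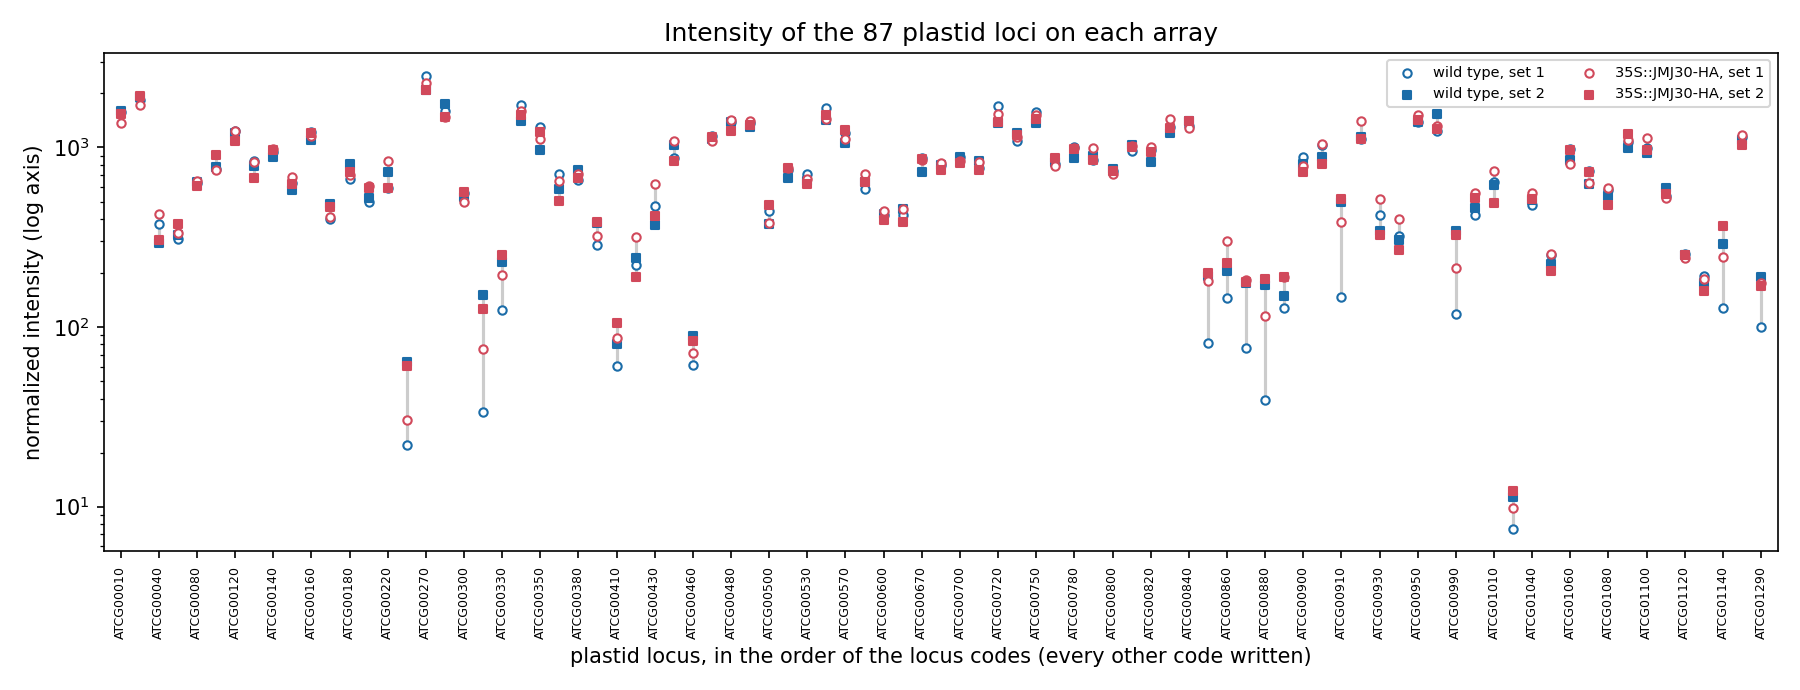
Normalized intensity (log axis) of each of the 87 plastid loci on the 4 arrays, in the order of the locus codes. Grey bars join the lowest and highest array of a locus. They are short at bright loci and long at a minority of dim ones, where the open blue circle of wild-type set 1 is often lowest.

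The first comparison asked whether plastid transcripts differed between the line made to overexpress JMJ30 and the wild type. With limma on log2 intensity and Benjamini-Hochberg adjustment over all 32627 loci, 0 of the 87 were called, where 0% of all loci were called. At an unadjusted p under 0.05 there were 0 plastid loci, against 2.99% of all loci. Readings were higher in the transgenic line at 50 plastid loci and lower at 37. The log2 differences ran from -0.18 to 0.83 with a median of 0.04, against a median of -0.0039 over all loci. Differences under 0.25 in size made up 73 of the 87, or 83.9%, against 72.8% of all loci, which were mostly dimmer. The transgenic arrays exceeded both of the wild type at 13 loci (14.9%, against 12.7% of all loci), and the reverse held at 6 (6.9%, against 13.3%).

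The precision differed with the signal. The 95% intervals of the log2 genotype difference used moderated standard errors and were not adjusted. They lay between -0.65 and 0.67 in the bright group and between -0.76 and 0.78 in the middle group. In the dim group they reached from -1.42 to 2.66. For bright plastid loci the arrays thus bound a genotype difference more closely than for dim ones.

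Among loci that read lower in the transgenic line, the most negative moderated t belonged to ATCG00280, which read 1605 and 1756 in the wild type, against 1473 and 1483 in 35S::JMJ30-HA. Its groups did not overlap, and the log2 difference was -0.18 ± 0.18 (SE). ATCG00900 read 881 and 813 in the wild type against 789 and 732 in the transgenic line, again without overlap, a log2 difference of -0.15 ± 0.19 (SE). ATCG00010 read 1573 and 1593 against 1360 and 1543, also without overlap, although the second pair differed little. At the other 2 loci named by the rule, ATCG00360 and ATCG00130, the groups overlapped, with log2 differences of -0.17 ± 0.23 (SE) and -0.12 ± 0.20 (SE). All 5 differences were no larger than about their moderated standard error, and limma called none (adjusted p = 1.0 for each). The lowest unadjusted p of the 5 was at ATCG00280. It was 0.36 by limma, 0.106 by an ordinary linear model and 0.081 by limma with trend and robust settings.

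Loci with the most positive moderated t came mostly from the dim group. ATCG00890 read 127 and 149.7 in the wild type, against 190.4 and 189 in 35S::JMJ30-HA, so that both transgenic arrays were higher. Its log2 difference was 0.46 ± 0.19 (SE), with a 95% interval from -0.035 to 0.95. ATCG00860 read 145 and 205 in the wild type, against 302 and 226 in 35S::JMJ30-HA. The groups did not overlap here either, and the log2 difference was 0.60 ± 0.27 (SE). ATCG00410 read 60.5 and 80.8 against 86.9 and 104.8, a log2 difference of 0.45 ± 0.24 (SE). ATCG01000, of the middle group, read 418 and 459 against 557 and 526, a log2 difference of 0.30 ± 0.19 (SE). ATCG00870 read 76.5 and 176 against 184 and 178, where wild-type replicate 1 stood below the other arrays. Its log2 difference of 0.64 ± 0.42 (SE) became 0.040 without that array. None of the 5 passed the test (adjusted p = 1.0 for each).

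The genotype difference was also taken within each set. With the replicate number as a block, 0 plastid loci were called, where 0% of all loci were called, and 3 reached an unadjusted p under 0.05 (3.45%, against 6.01% of all loci). These were ATCG00410, ATCG00890 and ATCG01140, each reading higher in the transgenic line. The genotype differences in set 1 and set 2, which share no array, correlated at 0.011 (Pearson) and -0.067 (Spearman) over 87 loci. Over nuclear loci the same correlation was 0.035 (Pearson) and 0.018 (Spearman). The direction was the same at 40 plastid loci (46.0%, against 50.2% of all loci).

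**Figure D3:**
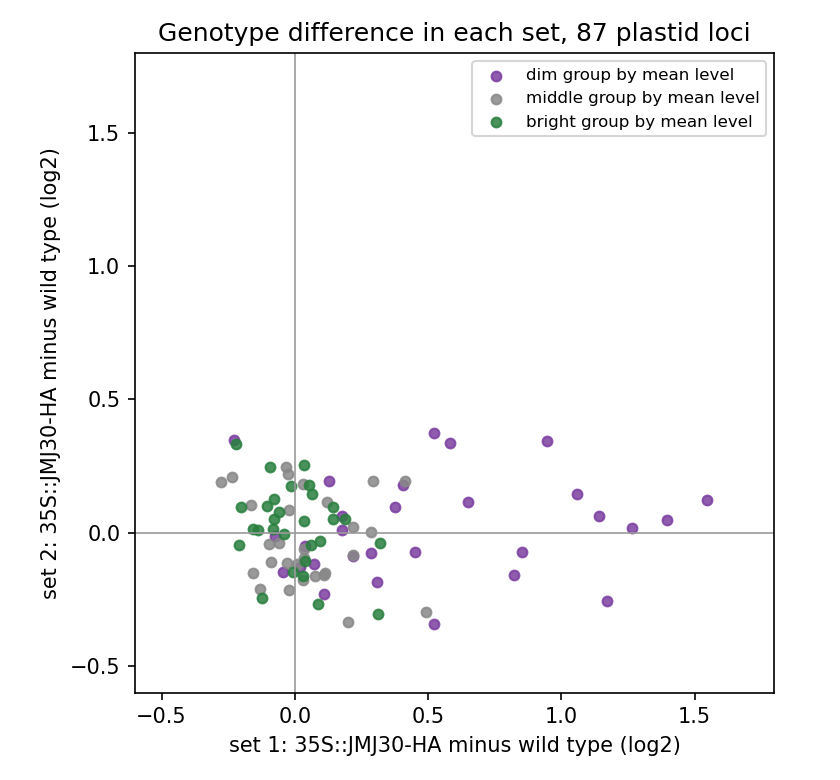
Log2 difference of 35S::JMJ30-HA minus wild type in set 1 (horizontal) and set 2 (vertical), 1 point per plastid locus, coloured by level group. Dim-group loci extend to 1.55 in set 1 while in set 2 they stay between -0.34 and 0.38.

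In the dim group, 26 of 29 loci read higher in the transgenic line in set 1, with a median log2 difference of 0.405. In set 2 there were 15 of 29, with a median of 0.0092. ATCG00880 shows the pattern most plainly, at 39.5 and 115 in the wild type and the transgenic line of set 1, and at 171 and 186 in set 2. Its genotype difference was 1.55 in set 1 and 0.12 in set 2. ATCG00910 read 146 and 386 in set 1 against 498 and 514 in set 2. In both, wild-type replicate 1 stood below the other arrays. That array was the lowest of the 4 at 18 of the 29 dim-group loci, at 6 of the middle group and at 4 of the bright group, where 25.8% of all loci had it lowest. Without wild-type replicate 1 the dim group divided into 13 higher and 16 lower, with a median of -0.033 in place of 0.19. A fit without a wild-type array has that genotype in a single set, so the difference between the sets enters its genotype difference. Without wild-type replicate 2, 10 plastid loci, all of the dim group, reached an unadjusted p under 0.05, against 4.04% of all loci, and none was called, where 0% of all loci were called. Mitochondrial loci had their lowest reading on the same array in 58 of 107 cases, and the part of that array in these differences was not tested further.

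The second comparison took the replicate numbers against each other. On log2 intensity with genotype as a term, limma called 0 of the 87 plastid loci, where 0.0123% of all loci were called. At an unadjusted p under 0.05 there were 8 plastid loci, or 9.2%, which is under the 15.5% of all loci. All 8 were in the dim group, and 7 of them read higher in set 2, where 8.35% of all loci had such a p and were higher. Over the 87 loci 39 read higher and 48 lower in set 2, with a median log2 difference of -0.019, against 0.0091 over all loci. Both arrays of set 2 lay above both of set 1 at 19 loci (21.8%, against 25.5% of all loci), and the reverse held at 25 (28.7%, against 23.2%). Differences of at least 2-fold occurred at 5 plastid loci (5.75%, against 2.66% of all loci), all higher in set 2, as were 1.39% of all loci.

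The number called between the sets changed with the loci tested, the scale and the variance settings. With only the loci above the valley tested, 5 plastid loci passed (ATCG00230, ATCG00320, ATCG00880, ATCG00990 and ATCG01140), where 10.3% of the loci tested were called. With 16 added to every value before the logarithm there were 3, against 5.66% of all loci, and with trend and robust settings in eBayes 16, against 10.9%. Of these 16, 11 read higher and 5 lower in set 2, and 14 were in the dim group.

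**Figure D4:**
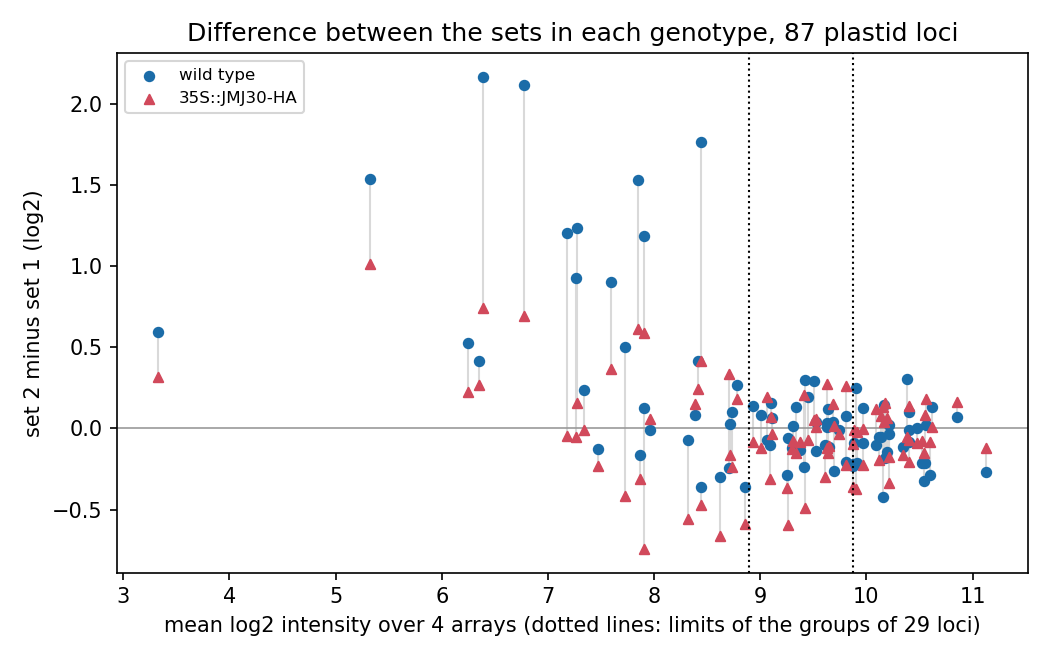
Log2 difference of set 2 minus set 1 in each genotype (blue circles, wild type; red triangles, 35S::JMJ30-HA) against mean log2 intensity, with a grey line joining the 2 values of a plastid locus. Values near 0 at bright loci widen towards dim loci, where wild-type values reach 2.17 and transgenic values 1.01.

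The loci that differed most between the sets were dim and differed in the same direction in both genotypes, but by more in the wild type. ATCG00230 read 22.1 in set 1 and 63.9 in set 2 of the wild type, against 30.2 and 60.8 in 35S::JMJ30-HA. The arrays of set 2 were about equal and both above those of set 1. Its log2 difference was 1.27 ± 0.20 (SE), with a 95% interval from 0.73 to 1.81 and an adjusted p of 0.145 by limma. ATCG00320 read 33.6 and 151 in the wild type against 75.7 and 126, a log2 difference of 1.45 ± 0.37 (SE). ATCG00880, described above, differed by 1.40 ± 0.37 (SE). ATCG00910 differed by 1.09 ± 0.35 (SE), its arrays of set 2 being nearly equal and those of set 1 far apart. In the wild type and the transgenic line the differences were 2.17 and 0.74 at ATCG00320. They were 2.11 and 0.69 at ATCG00880, and 1.76 and 0.41 at ATCG00910.

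ATCG00990 read 118 and 341 in sets 1 and 2 of the wild type against 213 and 325 in the other genotype, a log2 difference of 1.07 ± 0.27 (SE). ATCG01140 read 127 and 289.5 against 245 and 367, a log2 difference of 0.89 ± 0.22 (SE). At both, as at ATCG00320, set 2 lay above set 1 without overlap, which held at 25.5% of all loci. ATCG00330, the next code in the table after ATCG00320, read 124 and 232 in the wild type against 195 and 251, a log2 difference of 0.63 ± 0.21 (SE). ATCG00460 showed a smaller difference of 0.37 ± 0.18 (SE), from 61.7 to 89.0 and from 71.8 to 83.7. None of these differences passed the test in the fit described first. The sets were also compared without wild-type replicate 1, with replicate number as the only term. Set 1 was then the transgenic line alone, so the genotype difference enters these values. The log2 difference was 0.87 at ATCG00320, 0.63 at ATCG00880, 0.39 at ATCG00910 and 0.64 at ATCG00990. It was 0.41 at ATCG01140 and 0.31 at ATCG00330, while ATCG00230 kept 1.05.

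In the run of dim codes from ATCG00850 to ATCG00890, as at the loci above, the difference between the sets was larger in the wild type. ATCG00850 read 81.7 and 192 in the wild type, against 180.2 and 201 in 35S::JMJ30-HA. The wild-type difference was 1.23 and the transgenic one 0.16. ATCG00870 differed by 1.20 in the wild type and by -0.047 in the transgenic line, and ATCG00860 by 0.4998 and -0.41. The same values were 2.11 and 0.69 at ATCG00880, described above, and 0.24 and -0.011 at ATCG00890. ATCG01290, outside this run, read 99.5 and 189 in the wild type, against 176 and 170 in 35S::JMJ30-HA. With 1 array in each cell of this layout, the inequality between genotypes could not be tested.

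Other loci read lower in set 2. ATCG00430 read 474 and 369 in sets 1 and 2 of the wild type against 628 and 418, a log2 difference of -0.48 ± 0.17 (SE). ATCG00930 read 422 and 343 against 515 and 325, a log2 difference of -0.48 ± 0.18 (SE). Each was lower in set 2 in both genotypes. ATCG00040 read 376 and 293 against 426 and 307, a log2 difference of -0.42 ± 0.17 (SE). ATCG00360 and ATCG00905 followed at -0.33 ± 0.16 (SE) and -0.30 ± 0.17 (SE). None passed the test.

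By level, the median difference between the sets was 0.22 in the dim group, with 20 of 29 loci higher in set 2. It was 0.061 without wild-type replicate 1 and 0.42 without transgenic replicate 1, in fits that held no genotype term. The median was -0.023 in the middle group, with 10 of 29 higher, and -0.067 in the bright group, with 9 of 29 higher. The dim group differed by a median of 0.41 in the wild type and of 0.15 in the transgenic line. Over the 87 loci the set differences of the genotypes, which share no array, correlated at 0.62 (Pearson) and 0.38 (Spearman). The correlation was 0.76 (Pearson) within the 29 loci of the dim group and -0.084 within the other 58. The same correlation was 0.42 over nuclear loci. Loci are not independent replicates, and all 4 arrays were normalized together.

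For the 107 mitochondrial loci the median log2 difference between the sets was 0.48. Of these loci 80 (74.8%) read higher in set 2, against 51.2% of all loci. At an unadjusted p under 0.05 by limma there were 54 (50.5%), against 15.5% of all loci. The mitochondrial median intensity was 22.4 and 41.4 in sets 1 and 2 of the wild type, against 28.2 and 38.7 in 35S::JMJ30-HA. The plastid median was 716 and 729 in the wild type, against 716 and 679 in 35S::JMJ30-HA. The dim plastid group had medians of 146 and 242 in the wild type and of 245 and 251 in the transgenic line. The difference between the organelles was not tested.

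Nuclear genes that serve the plastid were read beside these values. Of 6 sigma factors, which direct the plastid-encoded polymerase to its promoters, 5 read higher and 1 lower by genotype (transgenic minus wild type), at a median log2 difference of 0.085. SIGF (SIG6), with the largest absolute t, read 740 and 764 in the wild type, against 641 and 750.2 in 35S::JMJ30-HA. SIG2 read 638 and 537 against 628 and 618. Between the sets 5 of 6 read higher in set 2, with a median of 0.32. SIGE (SIG5), a light-responsive sigma factor, read 37.7 and 90.1 in sets 1 and 2 of the wild type, against 38.1 and 89.9 in 35S::JMJ30-HA. The genotypes were nearly equal at this gene within each set, and the log2 difference between the sets was 1.25 ± 0.16 (SE; adjusted p = 0.122 by limma). SIGC (SIG3) differed by 0.35 ± 0.17 (SE) between the sets.

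All 3 loci of the list of phage-type polymerases read higher in set 2, at a median log2 difference of 0.72, each at an unadjusted p under 0.05 (against 15.5% of all loci, 8.35% higher in set 2) and none past the test. SCA3, the plastid enzyme, has the smallest t of them and was named after its values were seen. It read 187 and 242 in the wild type, against 168 and 282 in 35S::JMJ30-HA. MGP3, its mitochondrial relative, read 85.6 and 112 against 73.8 and 152. The third locus, AT5G15700, to which the gene table gives no symbol, read 65.8 and 94.4 against 46.4 and 119. At all 3 both arrays of set 2 lay above both of set 1, as at 25.5% of all loci. Their log2 differences were 0.56, 0.72 and 0.94 in this order. The genotype differences were 0.04, 0.11 and -0.08.

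Proteins that associate with the plastid-encoded polymerase split 7 and 5 by genotype and 6 and 6 by set, with medians of 0.024 and -0.024. FSD2, an iron superoxide dismutase, had the largest genotype difference by t, at 348 and 316 in the wild type, against 424 and 348 in 35S::JMJ30-HA. PTAC14 differed by 0.13 ± 0.19 (SE). Between the sets FLN1 differed by -0.24 ± 0.17 (SE) and FSD2 by -0.21 ± 0.17 (SE).

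Nuclear partners of plastid-encoded subunits differed little between genotypes. Of 12 photosystem I subunits 4 read higher and 8 lower in the transgenic line (median -0.0090), with PSAH2 at 0.14 ± 0.18 (SE) and PSAL at -0.14 ± 0.19 (SE). Of 9 photosystem II subunits 5 were higher and 4 lower (median 0.028), with PSBO1, of the oxygen-evolving complex, at 0.11 ± 0.20 (SE) and PSBO2 at 0.08 ± 0.18 (SE). All 4 Rubisco small-subunit genes read slightly lower (median -0.036), with RBCS3B at -0.07 ± 0.22 (SE) and RBCS2B at -0.05 ± 0.18 (SE), and near-identical copies of this family may share signal. The 4 genes of the ATP synthase and cytochrome complex had a median of 0.040, with PDE334 at -0.07 ± 0.19 (SE) and ATPD at 0.06 ± 0.19 (SE). No gene of these lists was called in either comparison.

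Between the sets these partner lists had medians from -0.11 to -0.0073, near that of the bright plastid group at -0.067. The largest absolute t belonged to PSAH-1 at -0.19 and PSAF at 0.15 in photosystem I, and to PSBR at -0.16 and PSBY at 0.099 in photosystem II. RBCS3B differed by -0.21, RBCS1B by -0.19, ATPC1 by -0.15 and PDE334 by -0.11. GLK2, a transcription factor of chloroplast development listed as a green-tissue marker, read 68.5 and 182 in sets 1 and 2 of the wild type, against 81.2 and 132 in 35S::JMJ30-HA. It was higher in set 2 in both genotypes, with a log2 difference of 1.05 ± 0.23 (SE) that did not pass the test (adjusted p = 0.192). Of the other green-tissue markers, LHCB2.1 differed by 0.75 ± 0.18 (SE) between the sets, RBCS1A by 0.012 and PSAD-1 by -0.11. CAB2, near background, differed by -0.13, and none of the markers passed the test.

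**Figure D5:**
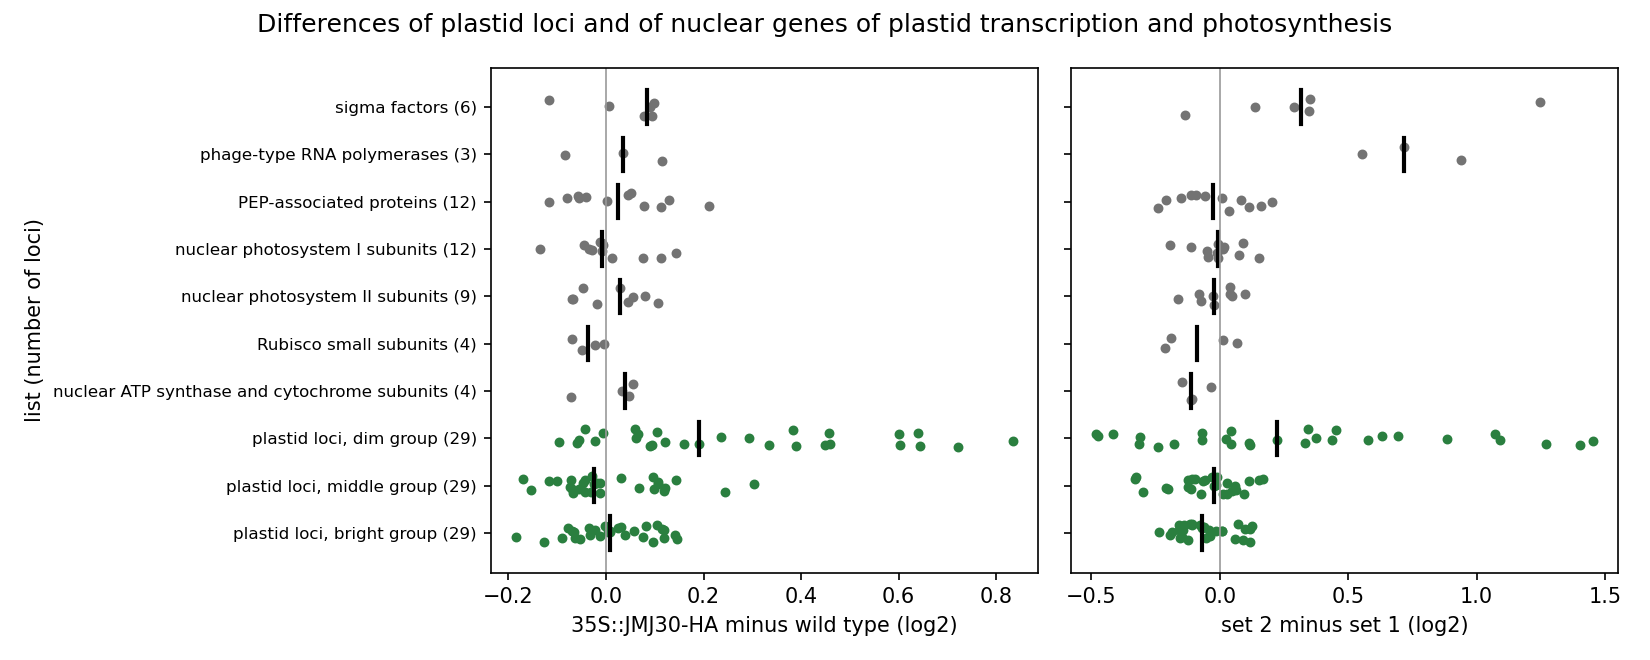
Log2 differences between genotypes (left) and between sets (right) for nuclear lists (grey points) and for the level groups of plastid loci (green points), with 1 point per locus and a black bar at the median. Sigma factors, phage-type polymerases and the dim plastid group have medians of 0.32, 0.72 and 0.22 between the sets, while the other lists stay near 0.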

How the data were processed

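For each of 37118 transcript models the authors deposited an intensity from each of 4 arrays, linear and already normalized with RMA per the submitters' processing notes, which name no version or settings. No value was at or below 0, so log2 was taken without a pseudocount, and the model with the highest mean stood for each of 32627 loci. The sources used here give no detection call or background measurement. The valley between the modes, at 14.3, marks loci called near background.

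The genotype comparison used lmFit and eBayes of limma 3.58.1 (R 4.3.3) with genotype as the only term. Replicate numbers were compared with genotype as a further term, which was dropped when a single array was left out. Both tests were two-sided, Benjamini-Hochberg adjusted over all loci and called at an adjusted p below 0.05. The fits were tested on simulated data. Errors are moderated standard errors (SE), signed differences are transgenic minus wild type or set 2 minus set 1, and plots were made with matplotlib 3.10.9.

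Equal replicate numbers were taken to form a set of both genotypes, which is one reading of the design text. Another reading is possible. The deviations of same-numbered arrays from their genotype means correlated at 0.42 over all loci, 0.68 above the valley and 0.62 over the plastid loci. This is the same quantity as the correlation of set differences given above, so it is no separate support for either reading. Nothing says that replicates came from separate plantings, so p-values rest on the spread between these samples, moderated by limma towards that of all loci. In the fit with genotype and replicate number, the prior had 3.64 degrees of freedom against 1 residual. Loci with closely matching arrays therefore had larger standard errors than their own arrays alone would give.

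Members, lists and tests were chosen with earlier results of these data known. The rule named the 5 plastid loci with the largest moderated t in each direction of each comparison and, from each nuclear list without a call, the 2 with the largest absolute t. A planned naming by symbol and functional class was not possible, because the plastid codes are not paired with symbols in the files or the gene table (NCBI, assembly TAIR10.1, which holds 31993 of the 32627 codes). Other loci named, and the split into level groups, were chosen after their values were seen. Alternatives tried are given in the closing section.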

Additional observations from a re-analysis of the deposited data

Results flagged for a closer look

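Of 27 plastid loci named in the text, 9 had genotype differences of opposite sign in the sets. Over the 87 loci there were 47, and 16248 of all 32627 loci. With 1 array in each cell these differences were not tested. The genotype difference in set 1 exceeded that in set 2, on the log2 scale, by 1.43 at ATCG00320, 0.98 at ATCG01290, 0.92 at ATCG00990, 0.52 at ATCG00230, 0.36 at ATCG00930, 0.30 at ATCG00460 and 0.13 at ATCG00905. At the brightest loci, ATCG00270 and ATCG00020, it was -0.15 and -0.096. The difference between the sets had opposite signs in the genotypes at 5 of the 27 named loci, at 35 of the 87 (40.2%) and at 37.6% of all loci, likewise untested. In the wild type it exceeded that in the transgenic line by 1.25 at ATCG00870, 0.98 at ATCG01290, 0.91 at ATCG00860, 0.25 at ATCG00890 and 0.22 at ATCG01000. Wild-type replicate 1 was the lowest array at each of these last 5 loci and at ATCG00320, ATCG00990, ATCG00230 and ATCG00460. The gap between genotypes in the set difference is by arithmetic the gap between sets in the genotype difference. The lists are therefore not separate results. Both hold only loci with opposite signs. Gaps of 1.42 at ATCG00880, 1.35 at ATCG00910 and 1.08 at ATCG00850, without such a change of sign, are in neither. Groups of 2 arrays are too small for an outlier test.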

How the results depend on the processing

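The genotype count stayed at 0 plastid loci under every alternative run, including the replicate block (0 loci) and without each array in turn (0 to 0). The count between the sets went from 0 to 5 with only loci above the valley (all higher in set 2; 10.3% of loci called), 3 with log2(value + 16) (5.66% of loci called) and 16 with trend and robust settings (11 higher, 5 lower; 10.9% of loci called). That last fit gave the prior infinite degrees of freedom, so the spread of single loci did not enter. Leave-one-out fits gave 0 to 0. In the set comparison ATCG00270 turned to 0.11 when quantiles were normalized again, and within the transgenic line ATCG00870, ATCG01290 and ATCG00860 read -0.047, -0.054 and -0.41. Without single arrays the set difference ran from -0.055 to 1.21 for ATCG00870 and from -0.49 to 0.57 for ATCG00860. The genotype difference then ran from -0.63 to 1.54 for ATCG00320, -0.22 to 1.89 for ATCG00880, -0.16 to 1.60 for ATCG00910, -0.58 to 0.96 for ATCG00230, -0.38 to 1.16 for ATCG00990, -0.014 to 1.22 for ATCG00850, -0.061 to 0.53 for ATCG01030, -0.20 to 0.070 for ATCG00270, -0.12 to 0.047 for ATCG00020, -0.27 to 0.031 for ATCG00130 and -0.36 to 0.015 for ATCG00360. The first 7 of these fell lowest without wild-type replicate 1. Without changing sign it ran from 0.040 to 1.24 for ATCG00870 and from 0.051 to 1.24 for ATCG01140. The median of the dim group ran from -0.033 to 0.33 between genotypes and from 0.061 to 0.42 between the sets. A fit without a single array has 1 set represented by a single genotype, so the set difference enters its genotype difference. The leave-one-out fits of the sets held replicate number alone, so the genotype difference likewise enters their set differences. Counting duplicated loci once and keeping protein-coding loci only were not run, since both need an annotation of the codes.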
